A study of Mus musculus with 51 samples.

Results

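Broad H3K27me3 domains were defined as the peaks of at least 10000 bp in the H3K27me3 list of MC3T3-E1 cells cultured without VitC (VitC-). Of the 84228 peaks in that list, 4450 (5.28%) were selected on this length, and they held 95.3 of its 233 Mb (40.8%). MC3T3-E1 is a mouse preosteoblast line from calvaria, labelled as strain C57BL/6 and used at passages 7 to 10. It was grown in VitC-free medium and then given 4 mM β-glycerophosphate with 50 µg/ml VitC (VitC+) or with 0 µg/ml (VitC-). The labels give 28 days of culture, whereas the methods and the peak names give 7 days for the histone ChIP-seq, so the histone and 5hmC lists of these cells may come from different days. Each histone mark was assayed in 2 samples per condition and deposited as 1 list per condition, 5hmC of MC3T3-E1 also had 2 samples per condition, and the lists carry no replicate spread. Femurs came from mice of the same strain. Mice with the Gulotm1Mae allele, which cannot make VitC, received 3.3 g/L VitC in the drinking water until sacrifice at 20 weeks (VitC+), or for 15 weeks followed by 5 weeks without (VitC+/-), and were set beside wild type mice (WT), with 3 RNA-seq libraries per group and 3 hMeDIP-seq samples for each knockout group. Further femur 5hmC lists were used from 3 Prrx1-Cre control mice (Ctrl) and 3 Prrx1-Cre mice with floxed Tet1 and Tet2 alleles (Tet1/2 cKO), of 11 weeks. Prrx1-Cre acts in limb mesenchyme, so blood cells of the marrow keep their Tet genes. RNA of MC3T3-E1 cells was not analysed here, so the cell type of the cultures could not be checked against marker genes.

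Polycomb repressive complex 2 writes trimethylation of lysine 27 on histone H3, and long stretches of this mark keep developmental regulators of other lineages silent. The KDM6 demethylases remove it, and the TET enzymes oxidise 5-methylcytosine to 5-hydroxymethylcytosine (5hmC), a mark found mainly in active gene bodies, enhancers and their flanks. Both enzyme families depend on iron, oxoglutarate and VitC. The domains therefore allow the repressive mark, its retention with VitC and the DNA mark to be read at the same places.

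To show the kind of sequence involved, 3 windows of 200 bases and 2 promoters are given, from GRCm38.p6 (mm10), with every CG dinucleotide in capitals, since CpG is the main substrate of 5hmC. The first window lies at chr2:28206666-28206865 (plus strand) inside the Olfm1 gene, 1690 bp outside a domain, and was covered by a VitC+ 5hmC peak of 958 bp with a fold enrichment of 8.04 and by no VitC- 5hmC peak. Of its 200 bases, 178 also lay in the VitC+ H3K27me3 list. It was picked as the exon-free VitC+ 5hmC peak of highest fold in the outer 2 kb of the 12 longest domains, so its VitC+ 5hmC is no result.
outer border: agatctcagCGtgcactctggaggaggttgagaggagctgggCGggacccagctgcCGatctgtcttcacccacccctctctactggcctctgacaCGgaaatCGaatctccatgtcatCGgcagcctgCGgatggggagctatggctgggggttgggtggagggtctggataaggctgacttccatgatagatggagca
The second window lies near the centre of the same domain, at chr2:28132925-28133124 (plus strand), outside protein-coding genes and 72051 bp from the nearest border. It was the first exon-free window met from the midpoint with no VitC+ 5hmC peak and with its 200 bases in the VitC+ H3K27me3 list. These states were thus chosen and are no result. It held no VitC- 5hmC peak either.
domain centre: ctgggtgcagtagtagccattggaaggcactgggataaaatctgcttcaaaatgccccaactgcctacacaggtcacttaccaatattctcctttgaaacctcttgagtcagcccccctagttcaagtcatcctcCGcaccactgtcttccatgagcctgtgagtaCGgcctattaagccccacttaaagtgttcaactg
The border window held 7 CpG and the centre 2. The third window, at chr8:122051857-122052056 (plus strand) within the Zfp469 gene and with 2 CpG, lies inside a domain under a VitC+ 5hmC peak of 985 bp and fold 11.5 (also in a VitC- 5hmC peak and in the VitC+ H3K27me3 list), and shows that the marks could overlap in these lists.
5hmC inside: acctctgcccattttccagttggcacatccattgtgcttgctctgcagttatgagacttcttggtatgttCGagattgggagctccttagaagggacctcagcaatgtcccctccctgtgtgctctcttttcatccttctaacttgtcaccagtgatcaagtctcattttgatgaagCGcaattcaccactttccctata
The promoters (250 bases upstream of a RefSeq start, minus strand) are those of Sost, which encodes the osteocyte Wnt inhibitor sclerostin, at chr11:101967016-101967265, and of Gata5, a heart and gut factor, at chr2:180334680-180334929 in the longest domain. Their sequences are shown because a bone gene and a developmental regulator fell into the same class of region with 6 and 22 CpG.
Sost promoter: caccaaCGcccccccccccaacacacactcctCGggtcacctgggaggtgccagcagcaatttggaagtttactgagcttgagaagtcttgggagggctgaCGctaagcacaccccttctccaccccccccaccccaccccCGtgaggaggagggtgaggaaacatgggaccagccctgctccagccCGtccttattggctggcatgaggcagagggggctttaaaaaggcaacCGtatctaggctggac
Gata5 promoter: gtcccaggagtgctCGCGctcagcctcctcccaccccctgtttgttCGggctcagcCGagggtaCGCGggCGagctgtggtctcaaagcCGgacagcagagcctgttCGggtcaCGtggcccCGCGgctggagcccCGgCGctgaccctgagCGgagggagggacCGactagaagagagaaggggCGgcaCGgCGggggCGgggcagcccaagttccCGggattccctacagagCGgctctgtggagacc
With VitC the 250 bases of the Sost promoter remained covered by H3K27me3, whereas those of Gata5 fell into a gap between VitC+ peaks. Neither held a 5hmC peak of MC3T3-E1 cells. A RefSeq promoter sequence was at hand for 1081 of the 1381 genes with a start site in a domain. Their median was 5 CpG in 250 bases and 34.3% held 10 or more, against a median of 10 and 50.4% over the 17492 protein-coding genes with a sequence.

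The domains were long, weakly enriched and unevenly spread. Their median length was 15886 bp (quartiles 12090 and 23758 bp), and 2942 measured 10 to 20 kb, 1100 measured 20 to 40 kb, 342 measured 40 to 80 kb and 66 were of 80 kb and over. The longest reached 232121 bp. Median fold enrichment over the local background was 2.87 (range 2.16 to 5.64), against 2.66 in peaks of 5 to 10 kb and 2.41 in shorter ones, and these values come from the list that chose the domains. The shortest members measured 10000, 10001 and 10002 bp and kept 73.7%, 51.5% and 77.1% of their length in the VitC+ H3K27me3 list. The longest peaks under the limit measured 9999, 9998 and 9998 bp and kept 66.2%, 84.0% and 22.2%, so values on either side of the limit overlapped.

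Domains lay close together and in CpG-rich, gene-rich sequence. The nearest other domain was at a median of 10.3 kb, and 2203 domains (49.5%) had another within 10 kb. They took 3.98% of autosomal bases, from 0.781% of chromosome 13 to 8.95% of chromosome 19. Chromosomes 11 (446 domains, 8.45% of its bases) and 2 (530 domains, 7.34%) were also rich in them, whereas chromosome X held 1 domain. CpG density was 12.2 per kb in domains, 11.0 in peaks of 5 to 10 kb and 8.51 over the autosomes, with GC contents of 48.1%, 46.4% and 41.9%. Protein-coding genes covered 48.6% of the length of autosomal domains and 41.0% of the autosomes, yet 1768 domains (39.7%) touched no such gene. Start sites lay at 14.5 per Mb of domain, compared with 8.57 per Mb of autosome.

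The share of genes inside differed between lists of developmental regulators. The start sites of 1381 of 21774 protein-coding genes (6.34%) lay in 1128 domains, of which 938 held 1 start site, 144 held 2 and 46 held 3 or more. Of the GATA factors, which specify blood, heart and endoderm, 4 of 6 were inside (Gata2, Gata3, Gata4 and Gata5). Of the bHLH lineage factors 17 of 42 (40.5%) were inside, among them the muscle regulators Myod1 and Myog and the neural genes Neurog1 and Olig2. T-box factors, which pattern limb and heart, had 6 of 17 genes inside (35.3%), including Tbx4, Tbx5 and T. Among secreted signals, 7 of 19 WNT ligands (36.8%) were inside, for example Wnt3a and Wnt7b, as were 5 of 22 FGF ligands and 1 of 3 Hedgehog ligands (Shh). Of the homeobox factors outside the Hox clusters, 26 of 124 (21.0%) were inside, such as Pax6, Pdx1 and Nkx2-5. The Hox clusters themselves contributed 5 of 39 genes, SOX factors 2 of 19 and BMP and GDF ligands 2 of 20. Forkhead factors, with 3 of 44 (6.82%), were near the share of all genes.

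Terminal differentiation genes of other tissues were present as well. Keratins, the filament proteins of epithelia, had 20 of 53 genes inside (37.7%) and potassium channels of excitable cells 22 of 92 (23.9%). Olfactory and vomeronasal receptors had 28 of 1455 (1.92%), a share under that of all genes. No member of the 57 clustered protocadherins or of the 77 ribosomal protein genes had its start site in a domain. Of the 56 bone-selective genes, 6 were inside (10.7%): Sost, Mmp9, Cdh15, Col13a1, Dll4 and Slc36a2. These counts describe the lists, which were not tested against other genes.

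**Figure D1:**
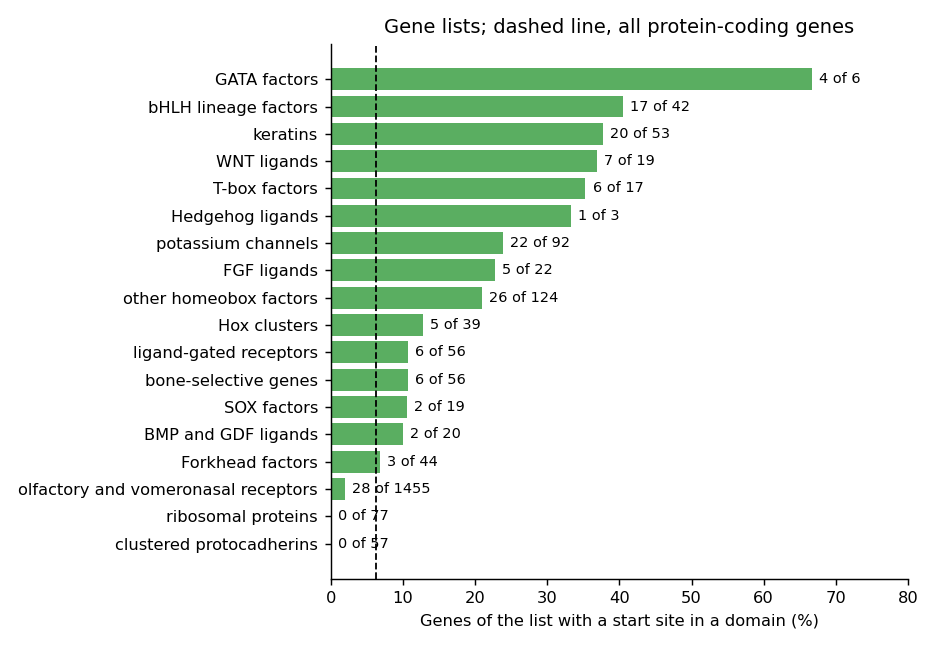
Share of each gene list with a start site in a broad H3K27me3 domain of VitC- MC3T3-E1 cells (horizontal axis, percent of the list), with the number of genes beside each bar and a dashed line at the share of all protein-coding genes (6.34%). GATA factors (4 of 6), bHLH lineage factors (17 of 42) and keratins (20 of 53) reached the highest shares, and ribosomal protein genes had 0 of 77.

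With VitC, domains were mostly retained but were listed as several shorter peaks. In the VitC+ list 75.0% of their length was still covered. The median domain kept 73.9% (quartiles 58.4% and 85.6%), 700 kept 90% or more, 586 kept 25 to 50%, 114 kept less than 25% and 1 was untouched. The VitC+ list held 86322 peaks over 145 Mb, compared with 84228 over 233 Mb, and its median peak was shorter (751 against 1033 bp). Its median fold enrichment was not lower (2.77 against 2.44), but both medians cover called peaks only and do not compare the strength of the mark. Of the VitC+ length, 49.4% lay on domains.

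Fragmentation was the common outcome. In the VitC+ list, 4191 domains (94.2%) were touched by 2 or more peaks and 258 by 1 peak, with a median of 4 and a maximum of 35. The longest remaining piece had a median of 6595 bp, and it still measured 10 kb or more in 1274 domains (28.6%). Between and beside the pieces lay 21079 gaps with a median of 875 bp and a maximum of 11875 bp. Inner gaps numbered 15494 and gaps at an edge 5585, and the edges held 24.3% of the uncovered length. Uncovered length was thus spread through the domains rather than limited to their ends.

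The domains were chosen for length in the VitC- list, so their shortening in another list is partly fixed by that choice and is no measure of loss. Chosen in the opposite way, the 1813 peaks of at least 10000 bp in the VitC+ list (31.4 Mb) were covered to 98.3% by the VitC- list, and 17.9% of them were touched by 2 or more VitC- peaks. Of these 1813 peaks, 1739 (95.9%) touched a VitC- domain, while 1402 of the 4450 VitC- domains (31.5%) touched one of them. The 2 directions were therefore unequal. The threshold mattered, because only 48.6% of domain length was covered, and 41.8% of domains had 2 or more pieces, when VitC+ peaks with a −log10 q of at least 2 were counted. Joining VitC+ peaks across gaps of up to 1000 bp left 70.6% of domains in pieces. The read depth behind the lists was not used here.

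Long domains were retained to a larger extent than short ones. The covered share of length was 67.01% at 10 to 20 kb, 76.7% at 20 to 40 kb, 83.7% at 40 to 80 kb and 90.8% at 80 kb and over. VitC+ peaks per 10 kb of domain fell in the same order, with values of 2.63, 2.02, 1.49 and 0.907. Shorter VitC- peaks continued this order, with 54.0% of length covered at 5 to 10 kb and 28.2% below 5000 bp, where 58.9% of peaks were untouched. Across the 4450 domains, Spearman's rho of the covered share was 0.346 with length, 0.462 with VitC- fold enrichment and −0.041 with CpG density, given as descriptions because domains of a list share its libraries. Domains with a start site kept 79.6% of their length and those without 72.6%. They were also longer (median 20406 against 14776 bp).

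**Figure D2:**
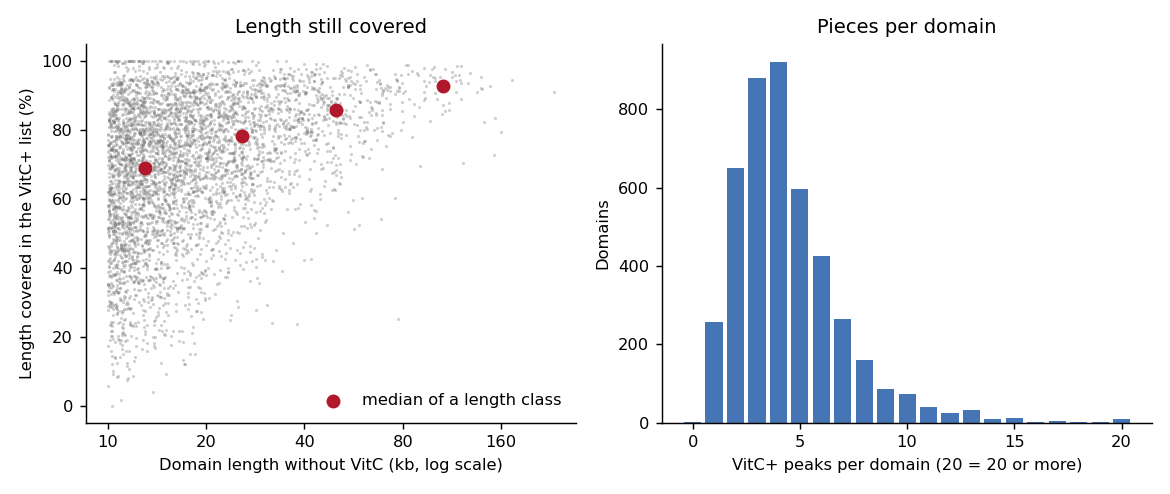
Left, share of each domain's length covered in the VitC+ H3K27me3 list (vertical axis, percent) against its length without VitC (horizontal axis, kb, log scale), with 1 grey point per domain and red points at the medians of 4 length classes; right, number of domains (vertical axis) by the number of VitC+ peaks that touch them, with 20 standing for 20 or more. Median coverage was 69.1% at 10 to 20 kb and 92.8% at 80 kb and over, and domains most often held 4 pieces.

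The longest domains illustrate the range. That of chr2:180322346-180554466 (232121 bp) holds Gata5, the anion transporter gene Slco4a1 and the neurotensin receptor gene Ntsr1, and kept 91.1% in 22 pieces. The Gata5 promoter shown above lay in 1 of its gaps, whereas the outermost annotated start of the gene stayed covered. A domain over Cntn2, a neural adhesion gene, kept 94.4% of 172706 bp. Hmcn2 lies in a domain of 128871 bp that kept 96.6% in 5 pieces, with a longest piece of 90198 bp. In contrast, the domain of the calcium channel gene Cacna2d2 (152561 bp) kept 72.7% and was split into 35 pieces, more than any other domain.

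Retention varied between domains of patterning genes. The Hoxb13 domain (60650 bp) kept 95.5%, the Hoxb9 domain 92.4%, the Hoxd4 domain 90.9% and the Hoxb1 domain 70.9%. Among T-box genes the domains of Tbx4, Tbx19, Tbx5 and T kept 94.2%, 90.4%, 86.3% and 83.01%. Gata2 and Gata3 domains kept 85.7% and 80.8%, but the Gata4 domain kept 51.0%. The Shh domain (17560 bp) kept 69.9% in 5 pieces. Counted at start sites, 934 of 1381 genes (67.6%) were still under a VitC+ peak, with 6 of 6 T-box factors, 4 of 4 GATA factors, 19 of 26 homeobox factors, 4 of 7 WNT ligands, 9 of 17 bHLH factors, 2 of 5 FGF ligands and 0 of 2 SOX factors (Sox8 and Sox10). By these counts T-box, GATA and homeobox factors (73.1%) were above the share of all domain genes, and WNT, bHLH, FGF and SOX genes below it. Hox genes had 4 of 5, Forkhead factors 2 of 3, BMP and GDF ligands 1 of 2 and Hedgehog ligands 1 of 1. These lists hold few genes and were not tested, so the counts give no order of the classes.

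Among domains with a start site, the least covered belonged to few regulators. Gm52008 (8.53% kept), Ccdc27 (9.14%), the keratin-associated pair Gm11554 and Krtap4-13 (13.9%), Urah (14.1%), the odorant receptor gene Olfr547 (16.4%), Trp73 (18.3%), Gm8439 (20.2%) and the interleukin 31 receptor gene Il31ra (21.6%) had the lowest shares. These 8 domains measured 10260 to 18364 bp, so they came from the short end. Trp73, which encodes the p53 relative p73, was a regulator among them.

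5hmC peaks covered little of the domains in cells with VitC. On the autosomes VitC+ 5hmC peaks covered 3.31% of domain bases and 8.14% of all bases, whereas VitC- 5hmC peaks covered 5.56% and 6.01%. With VitC, 5hmC thus had a lower share in domains and a higher share genome-wide than without. In 2928 domains (65.8%) the VitC+ share was the lower, in 1020 the higher and in 502 equal. A VitC+ 5hmC peak was present in 2360 domains (53.0%) and a VitC- one in 3700 (83.1%). Peaks of 5 to 10 kb (3.53% with VitC, 5.64% without) and under 5000 bp (3.21% and 5.94%) had similar values, so low 5hmC with VitC was not particular to broad domains. The order held for stricter peaks. At a 5hmC fold enrichment of at least 5, the inside was covered to 1.61% with VitC and 2.87% without, and the autosomes to 5.94% and 3.40%.

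The 5hmC peaks inside domains also differed from those elsewhere. Of 257696 VitC+ 5hmC peaks, 5962 (2.31%) had their middle in a domain, with a median fold enrichment of 4.14 and a median length of 406 bp, against 5.18 and 538 bp outside. Of 288862 VitC- 5hmC peaks, 10738 (3.72%) did, with median folds of 4.50 inside and 4.70 outside. Of these VitC- peaks, 18.3% overlapped a VitC+ 5hmC peak inside domains, compared with 34.2% outside. For VitC+ 5hmC peaks the shared part was 33.5% inside and 36.0% outside. The gap between inside and outside was thus wider for VitC- peaks, with no test because each condition has 1 list.

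The depletion held at matched CpG density, against windows outside domains on all autosomes. In 1 kb windows with 10 to 14 CpG, VitC+ 5hmC covered 3.46% inside domains and 16.1% outside. With 15 to 19 CpG the values were 5.30% and 20.6%, and with 5 to 9 CpG 1.598% and 7.18%. Without VitC the contrast was smaller at 10 to 14 CpG (5.05% inside, 6.88% outside) and turned at 0 to 4 CpG, where 9.23% was covered inside and 5.78% outside. VitC- 5hmC in the domains thus had its highest share in CpG-poor windows, where the VitC+ share was 0.907% inside and 1.54% outside. The contrast with nearby sequence was smaller. At 10 to 20 kb from the borders, with 12.1 CpG per kb, VitC+ 5hmC covered 7.73%. Domains had 12.2 CpG per kb and 3.31%. That flank was itself covered to 38.3% by VitC+ H3K27me3.

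**Figure D3:**
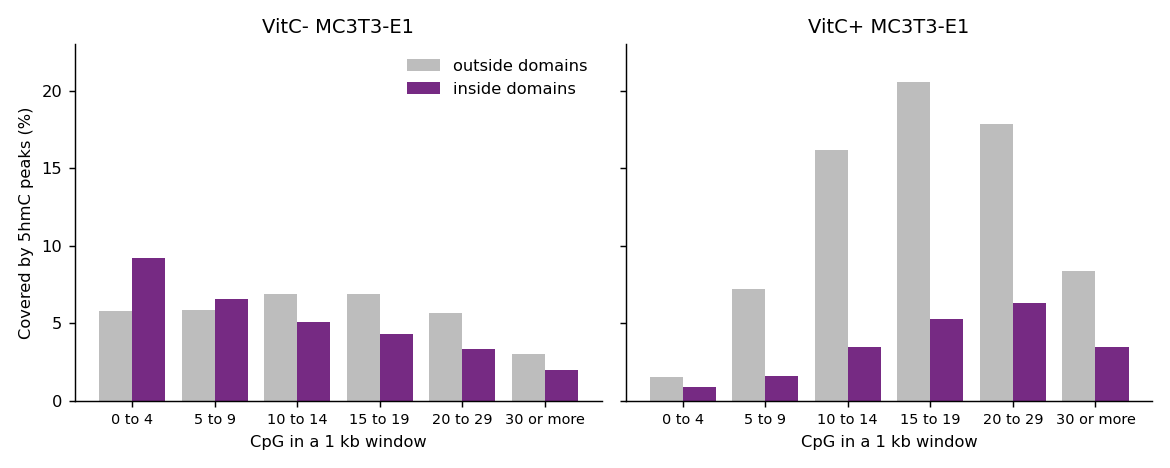
Share of 1 kb autosomal windows covered by 5hmC peaks (vertical axis, percent) by the number of CpG in the window (horizontal axis), inside domains (purple) and outside (grey), for VitC- (left) and VitC+ MC3T3-E1 cells (right). With VitC the bars inside were lower in each CpG class, for example 3.46% against 16.1% at 10 to 14 CpG, and without VitC the bar inside was higher at 0 to 4 CpG (9.23% against 5.78%).

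At the borders, 5hmC of VitC+ cells changed within about 2 kb. In bins of 500 bp it covered 8.79% at 750 bp outside the border, 6.61% at 250 bp inside, 4.90% at 750 bp, 4.07% at 1250 bp, 3.36% at 1750 bp and 2.93% at 4750 bp inside. VitC+ H3K27me3 ran the other way, from 26.5% at 750 bp outside to 45.2% at 250 bp and 74.5% at 4750 bp inside. Over the outer 2 kb, VitC+ 5hmC covered 8.48% and VitC- 5hmC 6.77%, and over the flank from 10 to 20 kb 7.73% and 6.26%. The outer border with VitC was thus close to the autosomal share of 8.14% and to the flank, and the inside was lower. The border was not matched for CpG, with 13.3 CpG per kb against 8.51 over the autosomes. In windows of 10 to 14 CpG outside domains, VitC+ 5hmC covered 16.1%. A VitC+ 5hmC peak was present in the outer 2 kb of 2468 of 8898 borders (27.7%) and in the inner 2 kb of 1693 (19.03%). For VitC- 5hmC these shares were 28.4% and 27.1%.

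Borders were also rich in CpG and start sites. CpG density was 14.04 per kb at 750 bp outside, compared with 12.2 in the domains. Start sites lay at 26.7 per Mb in the outer 2 kb, 14.6 in the inner 2 kb and 16.4 in the flank. At the 459 borders with a start site in the outer 2 kb, VitC+ 5hmC covered 12.7% and VitC- 5hmC 3.896%. At the other borders the values were 8.25% and 6.93%, so VitC+ exceeded VitC- 5hmC at both kinds of border. Where the outer 2 kb held no VitC+ H3K27me3 (2925 borders), 5hmC covered 11.5% with VitC and 7.19% without. Where it held some (5973 borders), 5hmC covered 6.99% and 6.56%.

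**Figure D4:**
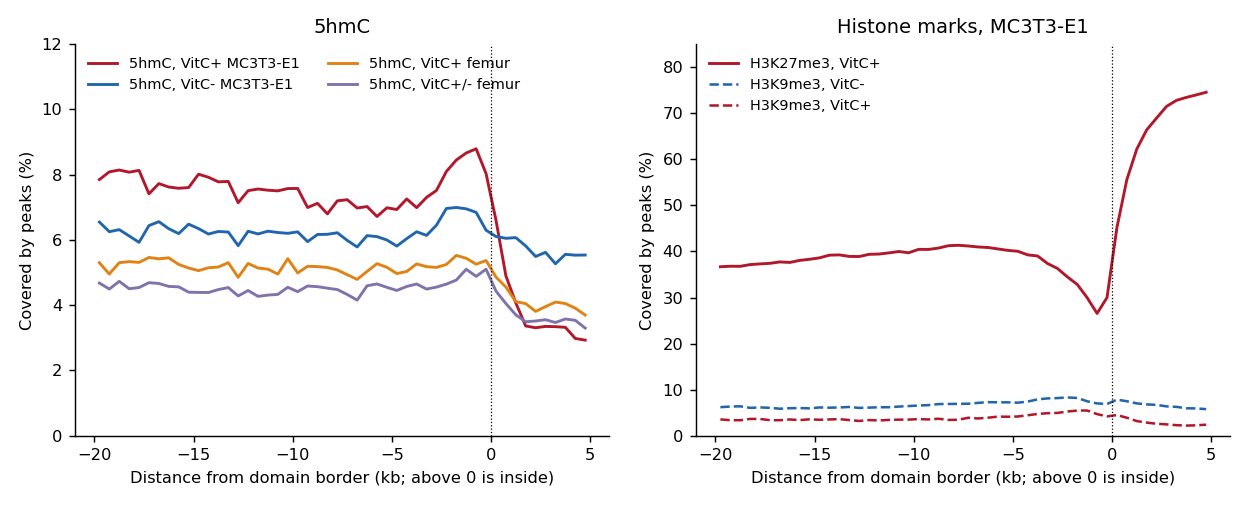
Mean share of bases covered by peaks (vertical axes, percent, in bins of 500 bp) by distance from 8898 domain borders (horizontal axes, kb, negative values outside), for 5hmC of MC3T3-E1 cells and of VitC+ and VitC+/- femurs (left) and for histone marks of MC3T3-E1 cells (right). VitC+ 5hmC fell from 8.79% at 750 bp outside to 2.93% at 4750 bp inside, while VitC+ H3K27me3 rose from 26.5% to 74.5%.

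Within the domains, the lost and the retained bases differed in 5hmC. Bases that left the VitC+ H3K27me3 list were covered by VitC+ 5hmC to 4.33% and retained bases to 2.98%. Without VitC the same bases had 4.83% and 5.81%. Both values with VitC stayed under the autosomal 8.14%, and the lost bases held more CpG (13.0 against 11.9 per kb). By the share kept, VitC+ 5hmC was 3.26% in domains with less than 25% kept and 3.64% in those with 90% or more, so the least covered domains were not those with more 5hmC.

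Single domains departed from this pattern. Among domains with a start site, VitC+ 5hmC was highest in that of Zfp469, a zinc finger gene linked to collagen and the cornea, with 60.9% of 19533 bp against 2.18% without VitC, and 38.3% of its H3K27me3 was kept. The domain at the start of Crispld2, which encodes a secreted protein, had 35.8% against 2.78% and kept 90.7%. Those of Wfdc1 (31.1% against 7.00%), Ngfr, the p75 neurotrophin receptor gene (32.2% against 10.6%), Psapl1 (29.9% against 15.9%), Epn3 (27.4% against 3.69%) and Klrg2 (27.3% against 11.8%) followed, whereas Spata20 had much 5hmC in both lists (34.98% and 30.9%). Retention of H3K27me3 in these 8 domains ran from 38.3% to 94.1%. The Sost domain (51816 bp, 78.8% kept in 10 pieces) had 10.8% against 6.66%, and that of Prex1, the fourth longest, 18.9% against 7.98%.

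At start sites, a VitC+ 5hmC peak lay within 1 kb of 219 of the 1381 genes (15.9%), compared with 39.3% of all protein-coding genes. For VitC- 5hmC the numbers were 288 genes (20.9%) and 20.9%. None of the 4 GATA factors and 1 of the 6 T-box factors in domains had VitC+ 5hmC there, too few genes to set against 15.9%. Over the whole lists, in or out of domains, the shares were 0% of GATA and 35.3% of T-box factors. The shares of domain genes and of all genes were therefore equal without VitC and unequal with it. Each condition is deposited as 1 list, so this difference has no test.

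H3K9me3, the mark of constitutive heterochromatin, overlapped the domains in part. It covered 6.87% of their autosomal bases without VitC (2.76% of the autosomes) and 2.98% with VitC (1.80%). Of the domains, 2290 (51.5%) touched a VitC- H3K9me3 peak and 1553 (34.9%) a VitC+ one. Without VitC the covered share was 5.78% at 10 to 20 kb and 9.47% at 80 kb and over. The domains of Hoxb13 (31.3%) and Tbx4 (31.1%) had high values.

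In femurs the domains of the cell line had less 5hmC than the genome in the Gulo knockout lists but not in the Ctrl list. They were covered to 3.59% in VitC+ femurs and 3.16% in VitC+/- femurs, compared with 7.32% and 7.30% of the autosomes. In Ctrl femurs the values were 11.7% inside and 11.4% over the autosomes, and in Tet1/2 cKO femurs 4.69% and 5.11%. The Ctrl and VitC+ lists come from different experiments and ages, so they were not compared with each other. The VitC+ and VitC+/- lists thus differed from each other inside the domains by less than either differed from its autosomal share. The Sost domain was covered to 11.4% in VitC+, 5.73% in VitC+/-, 44.5% in Ctrl and 31.8% in Tet1/2 cKO femurs.

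Genes with a start site in a domain were mostly low in femoral RNA. RPKM values were matched for 1311 of the 1381 genes. Their median mean level over the 9 libraries was 0.117 RPKM, against 2.75 RPKM for 18927 other protein-coding genes. Under 1 RPKM in each of the 9 libraries were 843 of them (64.3%), compared with 34.96% of the others, and 103 (7.86%) had a mean of 10 RPKM or more, compared with 26.5%. This gap was present in the 9 libraries, with domain medians of 0.0549 to 0.102 RPKM and other medians of 1.90 to 3.04 RPKM as deposited, before scaling. RNA came from flushed and minced femoral bones, and the marrow left after flushing was not measured. In bulk tissue, fewer cells of a type and less RNA per cell cannot be told apart. Sequencing depth in units of 1e6 reads was 7.57 in WT replicate 1 and 31.2 to 47.5 in the other libraries. Gulo was at 0.522, 0.486 and 0 RPKM in WT, 0.180, 0.0352 and 0.0294 in VitC+ and 0.0126, 0.0141 and 0.0186 in VitC+/- libraries, so the library labelled WT replicate 3 had no signal of a gene that its label says is intact.

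Of the developmental regulators in domains, few reached the level needed for a test. All 5 Hox genes, 23 of 26 other homeobox genes, 15 of 16 bHLH genes with a value and 5 of 6 T-box genes stayed under 1 RPKM in each library. Gata2, used by blood progenitors, was the exception among the GATA factors with a mean of 4.90 RPKM, and Pax5 had the highest mean among homeobox factors with 6.74 RPKM. The regulators of the domains thus had low RNA in femur, with B-cell and progenitor factors above the rest. Median RNA levels showed no order by retention of the mark in MC3T3-E1 cells. They were 0.123, 0.102, 0.103 and 0.143 RPKM for genes in domains with less than 50%, 50 to 75%, 75 to 90% and 90% or more of the length kept.

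When VitC was withdrawn, more of the domain genes that reached the filter were called lower than higher. The filter of 1 RPKM in at least 3 libraries was passed by 364 domain genes, and a gene that reached it through a single group had to differ, so the counts describe these genes and not all 1381. In VitC+/- against VitC+, limma with adjustment over all 12586 genes tested called 58 domain genes lower, 15.9% of the 364, compared with 7.52% of all genes tested. It called 17 higher, 4.67% of the 364, compared with 5.93%. The median log2 fold change was −0.22 for the domain genes and 0.02 for all genes. With no filter on low values, 62 of 1170 domain genes were lower and 35 higher, compared with 830 and 694 of 19717 genes. The excess of lower calls was thus smaller without the filter. The number of calls rested on single libraries, among domain genes and among all genes. Domain calls dropped from 75 to 35 without VitC+/- replicate 1, and to 48, 38 and 42 without VitC+ replicates 1, 2 and 3. Without the library labelled WT replicate 3 they numbered 62. In the same order, lower calls over all genes dropped from 946 to 316, 416, 325, 338 and 655. Higher calls over all genes dropped from 746 to 171, 276, 165, 235 and 454. Without VitC+/- replicate 1, 28 of 358 domain genes were lower and 7 higher, compared with 316 and 171 of 12431 genes.

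Against WT, the same VitC+/- libraries gave 88 lower domain genes (24.2% of the 364, against a background of 15.9%) and 62 higher (17.0%, against 15.3%). The median log2 fold change was −0.21 compared with 0.01. With no filter on low values, 99 of 1170 domain genes were lower and 97 higher, compared with 1844 and 2039 of 19717 genes. The excess of lower calls against WT was thus absent without the filter. With the filter, domain calls fell from 150 to 98 without VitC+/- replicate 1, and were 107 (67 lower and 40 higher) without the library labelled WT replicate 3. In the same order, lower calls over all genes fell from 2003 to 1255 and 1140, and higher calls from 1931 to 1139 and 1135. The comparisons share these 3 libraries, so the second is no independent repeat of the first. VitC+/- and VitC+ libraries did not overlap in any of the 75 genes called in the first comparison. With 3 libraries per group a call largely implies this, so it is no added support.

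The lower genes included genes of lymphoid and myeloid cells. Dntt, the terminal transferase of lymphocyte precursors, had 3.76, 10.9 and 6.46 RPKM in VitC+, 10.8, 5.09 and 12.6 in WT and 0.446, 0.157 and 0.312 in VitC+/- libraries. The VitC+/- libraries were below all others, with a log2 fold change of −3.13 ± 0.40 (SE, limma adjusted p = 0.00297) against VitC+. Pax5, the master regulator of B cells, fell by 2.66 (adjusted p = 0.0420) from 6.17, 11.0 and 8.24 to 0.440, 1.01 and 1.38 RPKM, but WT ranged from 1.47 to 20.8. The call was lost without any VitC+ or VitC+/- replicate, without the library labelled WT replicate 3 and with no filter. The Pax5 domain (20.9 kb) kept 91.5%. Ly6d, a surface marker of the B lineage, fell by 2.91 and Prss34, a protease of mast cells and basophils, by 2.96. Chil1, a secreted chitinase-like protein, fell from 31.5, 46.9 and 37.3 to 5.20, 8.44 and 3.15 RPKM (by 2.76, adjusted p = 0.00312), and lies in a domain of 117 kb that kept 98.5%. Oas2, an interferon-induced antiviral enzyme, fell by 2.71.

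Further lower genes outside the rule for named genes, picked after their values were seen, were the MHC class II genes H2-Aa (by 1.45), H2-Ab1 (by 1.54) and H2-Eb1 (by 1.68), the neutrophil gene Ltf (by 2.23), the chemokine receptor genes Cx3cr1 (by 2.43) and Cxcr2 (by 1.58), the recombinase gene Rag1 (by 1.88) and the B-cell adaptor gene Blnk (by 1.59). Of the 4 neutrophil markers in domains, 1 was called lower (Ltf), 1 higher (Mmp9) and Mpo and S100a9 were not called against VitC+, whereas the 3 B-cell markers in domains (Rag1, Pax5 and Blnk) were called lower. Marker sums moved with these genes, but the sums include the B-cell and neutrophil markers named here. The summed level of 13 B-cell markers, 3 of them in domains, was 63.1 to 177.9 RPKM in WT, 69.3 to 191 in VitC+ and 17.9 to 33.8 in VitC+/- libraries. The sum of 13 neutrophil markers was 52420 to 82660, 23070 to 50890 and 8908 to 27010 RPKM. B-cell sums of the withdrawn femurs thus lay below those of the other groups. Of the 75 called genes 7 are in the marker lists, and the part of cell composition in the calls was not tested.

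Lower genes also included bone-selective and matrix genes. Cpz, a carboxypeptidase that binds Wnt ligands, had 32.1, 14.1 and 28.4 RPKM in VitC+, 7.87, 2.82 and 5.48 in WT and 0.296, 0.126 and 0.630 in VitC+/- libraries. Each group was apart from the next, and the log2 fold change against VitC+ was −4.86 ± 0.40 (limma adjusted p = 0.000395). Its domain at chr5:35457507-35529210 kept 91.8%. Sost had 36.3, 17.5 and 10.4 RPKM in VitC+, 4.75, 6.94 and 3.56 in VitC+/- and 7.42, 3.78 and 3.34 in WT libraries. VitC+ was above both other groups, which overlapped, with log2 fold changes of −1.84 ± 0.44 (limma adjusted p = 0.0281) against VitC+ and 0.09 ± 0.44 (adjusted p = 0.890) against WT. The call against VitC+ was lost without VitC+ replicate 1 or 2, without VitC+/- replicate 1 or 3 and with no filter on low values.

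The other bone-selective genes in domains gave the following values. Slc36a2, a proton-coupled amino acid transporter, had 55.6, 26.8 and 39.8 RPKM in VitC+ and 5.29, 7.14 and 3.48 in VitC+/- libraries, a fall by 2.82 (limma adjusted p = 0.0108). Col13a1, a transmembrane collagen, fell by 2.50 and Cdh15, the cadherin of muscle precursors, by 1.82. Against WT none of these 3 passed the test (adjusted p = 0.140, 0.199 and 0.436), and their WT and VitC+/- libraries overlapped. Dll4, a Notch ligand, did not pass in either comparison (log2 fold change 0.23, adjusted p = 0.698, against VitC+). Of the 6 genes, 4 were thus lower than with VitC, 1 (Mmp9) was higher and 1 had no call. The list comes from the study, which related it to these libraries, so this count is not independent evidence. Snorc, a proteoglycan of cartilage, fell by 4.31 (adjusted p = 0.0323), but its VitC+ libraries had 8.03, 3.62 and 82.1 RPKM, and the call was lost without VitC+ replicate 1 or 3, without each of the VitC+/- replicates in turn and with no filter on low values. The sum of 11 chondrocyte markers was 40.6 to 96.8 RPKM in WT, 108 to 526 in VitC+ and 34.6 to 50.3 in VitC+/- libraries, and that of 16 osteoblast markers 1990 to 6045, 9670 to 17020 and 3511 to 11240. Pla2g5, a secreted phospholipase, fell by 3.56.

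Genes that rose included those of red cells and osteoclasts. Mmp9, the gelatinase of osteoclasts and neutrophils, had 242, 312 and 401 RPKM in VitC+, 148, 173 and 197 in WT and 843, 595 and 1042 in VitC+/- libraries. The VitC+/- libraries were above all others, with a log2 fold change of 1.37 ± 0.25 (limma adjusted p = 0.0111). Its domain (36065 bp, shared with the ion transporter gene Slc12a5) kept 64.5%. Slc4a1, the anion exchanger of red cells, rose by 1.51 (adjusted p = 0.0167) from 42.6, 39.3 and 52.6 to 143, 156 and 94.0 RPKM, and lost its call without VitC+ replicate 1 or 2 or VitC+/- replicate 1. Tspan33, a tetraspanin, rose by 1.92, Btnl10 by 1.44, Slc45a3 by 1.20, Cldn13, a claudin, by 1.13 (not called without VitC+/- replicate 1) and Trp53i11 by 1.13. The osteoclast sum of 10 markers, Mmp9 among them, was 833 to 898 RPKM in WT, 1448 to 2901 in VitC+ and 3131 to 6854 in VitC+/- libraries. The sum of 8 erythroid markers, Slc4a1 and Hba-a1 among them, was 220 to 319, 243 to 318 and 359 to 483 RPKM. Hba-a1 also lies in a domain and was not called against VitC+ (log2 fold change 0.25, limma adjusted p = 0.673). Both sums were thus higher in each VitC+/- library than in the other groups. They include Mmp9 and Slc4a1 themselves, so they are no independent support. The part of cell composition was not tested.

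Crispld2 was named among domains with much VitC+ 5hmC as well as among genes that rose. Its RNA was 6.11, 5.55 and 5.56 RPKM in VitC+, 8.34, 5.59 and 9.69 in WT and 11.7, 15.8 and 26.1 in VitC+/- femurs, a rise by 1.48 (limma adjusted p = 0.0125) that was no longer called without VitC+ replicate 2. In femurs its domain held no 5hmC peak in the VitC+ or VitC+/- list and was covered to 51.8% in Ctrl. Klf15, a metabolic transcription factor, went from 0.556, 0.387 and 0.734 to 4.26, 13.4 and 1.22 RPKM (log2 fold change 2.21 ± 0.62, limma adjusted p = 0.0460). This call was lost when any VitC+ replicate or WT replicate 2 or 3 was left out, with a pseudocount of 1, with no filter and with only the 6 libraries of the comparison. The sum of 12 adipocyte markers was 127 to 200 RPKM in WT, 213 to 418 in VitC+ and 407 to 3433 in VitC+/- libraries. Dpep3, a dipeptidase, was at 0.460, 0.121 and 0.121 RPKM in VitC+ and 2.94, 5.04 and 1.69 in VitC+/- libraries, with a log2 fold change of 2.27 that ran from 1.71 to 3.33 with the pseudocount. Klf15 and Dpep3 were under 1 RPKM in each WT and VitC+ library and reached the filter through the VitC+/- libraries alone, so they could be tested because they were high there, and not with a VitC+/- replicate left out.

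**Figure D5:**
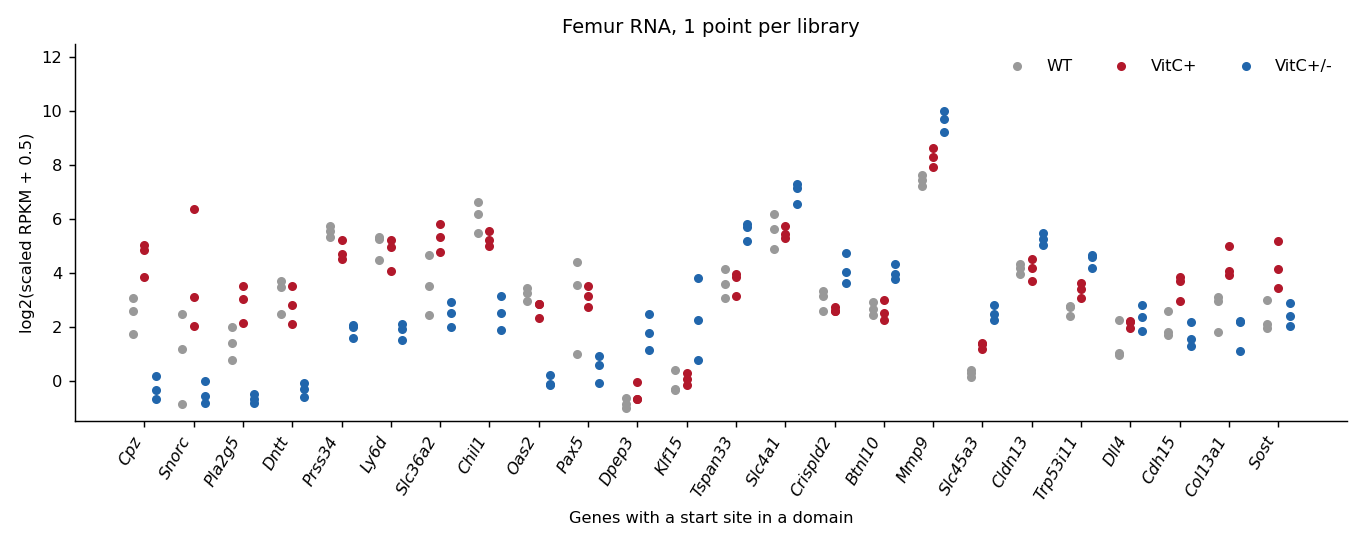
RNA of 24 named genes with a start site in a domain (horizontal axis), as log2 of scaled RPKM plus 0.5 (vertical axis), with 1 point per femur library of WT (grey), VitC+ (red) and VitC+/- (blue). VitC+/- points of Cpz lay between 0.126 and 0.630 RPKM, below the 14.1 to 32.1 RPKM of VitC+, and those of Mmp9 lay between 595 and 1042 RPKM, above the 242 to 401 RPKM of VitC+.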

How the data were processed

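Domains, gene lists and tests were chosen with earlier results of these data known. The authors mapped hMeDIP-seq and ChIP-seq reads to mm10 with BWA 0.7.15.1 and called peaks with MACS2 2.1.1.20160309.6 (versions from the submitters' processing notes). The deposited lists give fold enrichment as a ratio over local background and −log10 q, of which the histone lists hold values down to 1.01, so some of their peaks lie above the FDR of 0.05 in the methods. The methods give pooled calling for 5hmC. Whether histone duplicates were pooled is not given in the sources used here, and the histone peak names carry the number 1. The authors deposited femur RNA as RPKM from STAR 2.6.0b-1 alignments. Depth was recovered from RPKM steps (92.2 to 93.5% of low values within 0.05 of whole multiples).

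Covered shares are bases under peaks per region. Gene models and promoters are from RefSeq GRCm38.p6. A gene belongs to a domain through its outermost annotated start. Of 23358 RNA entries, 69 share a name under 26 names. RPKM was divided by median-of-ratios factors (0.754 to 1.096), 0.5 was added, and log2 values of genes with at least 1 RPKM in 3 libraries were tested with limma 3.58.1 (trend, all 9 libraries, Benjamini-Hochberg, threshold 0.05) in R 4.3.3. Fold changes are on the log2(RPKM + 0.5) scale and understate changes of low genes. P-values measure the spread between these libraries. Genes with RNA values were the 10 largest falls and 10 largest rises among called domain genes with groups that did not overlap and at least 2 RPKM in the higher group, and the bone-selective genes in domains. Domains named were the 12 longest, those of Hox, T-box, GATA, Hedgehog and bone-selective genes (at most 4 per list), and the 8 with most VitC+ 5hmC and the 8 least covered among those with a start site. Peak steps and limma were tested on simulated data. Peaks were handled in Python 3.11.15 with pandas 2.3.3 and numpy 2.4.6, and figures drawn with matplotlib 3.10.9. Inputs, RNA of the Tet mice and mRNA of MC3T3-E1 cells were not used here.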

Additional observations from a re-analysis of the deposited data

How the results depend on the processing

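Retention of domains depended on how they were chosen. The covered share of length (75.0%) became 68.3% for peaks of at least 5000 bp, 80.8% for at least 20000 bp, 82.5% after joining VitC+ peaks over 1000 bp, 51.6% after joining VitC- peaks over 3000 bp, 48.6% with VitC+ −log10 q of at least 2 and 98.3% in the opposite direction. The share of domains with 2 or more pieces (94.2%) became 83.9% and 97.1% at those lengths, 70.6% after joining VitC+ peaks, 93.1% and 41.8% at −log10 q of at least 1.3 and 2, and 17.9% in the opposite direction. Untouched domains (1) became 101 and 0 at those lengths, 2 and 980 at those thresholds, and 12 with 10% coverage required. With 5hmC peaks of −log10 q of at least 5 and of fold at least 5, the inside was covered to 2.49% and 1.61% with VitC and 4.33% and 2.88% without (all chromosomes), and the outer border with VitC to 7.23% and 5.54%. With a border of 5000 bp it was 7.80%. Genes numbered 633 with the whole gene inside, 2244 with any overlap and 792 in domains of at least 20000 bp.

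Calls of domain genes in VitC+/- against VitC+ (75) became 114 with start sites in peaks of at least 5000 bp and 129 with any overlap. They ranged from 35 to 102 with single libraries left out. Against WT (150) they became 228 and 250, and ranged from 98 to 152. The share of lower calls went from 77.3% to 72.9% without scaling and to 63.9% with no filter, and against WT from 58.7% to 55.5% and 50.5%. The replicate block gave 104 and 173 calls. Pairing by replicate number was not assumed in the main fit. Same-number correlations ran from −0.192 to 0.464 and those of different numbers from −0.37 to 0.415, so the ranges overlapped and do not decide whether the samples are paired. Log2 fold changes with single libraries left out ranged from −0.0040 to 0.48 for Dll4 against VitC+ (turned without VitC+/- replicate 1) and from −0.13 to 0.40 for Sost against WT (turned without WT replicate 2 or 3 or VitC+/- replicate 2), none of these past the threshold. Of 803 values over 24 named genes, 756 kept direction and call, 39 lost and 4 gained a call. The causes were not tested. Depth behind the peak lists is unknown and limits all shares.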
